A study of Mus musculus with 7 samples.

Results

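The genes described here are 10 transcription factor genes that shape the T follicular helper (Tfh) programme: Tcf7, Lef1, Tox, Tox2, Tcf3, Tcf4, Tcf12, Id2, Id3 and Ascl2. They were taken by gene name from a list of 6395 ATAC-seq peaks. In ATAC-seq a transposase cuts open chromatin into fragments. Pooled fragments from mice given an antibody against the interferon receptor chain IFNAR1 were set against those from mice given control IgG. Each listed peak is a site that the peak caller called as higher, scaled for depth, on the anti-IFNAR1 side. Of the 10 genes, 8 had exactly 1 peak each, so 8 of the 6395 peaks are theirs, and Tcf3 and Tcf4 had none. The cells were splenic Tfh cells, sorted as CD4+ CD44+ GITR- with low PSGL-1, high CXCR5 and high PD-1, from B6/Sle1.Yaa mice aged 5 months, a lupus-prone strain whose alleles both groups carry. There were 4 anti-IFNAR1 samples and 3 samples from mice given anti-rat IgG, with antibody given 2 times a week for 4 weeks. The antibody is written anti-IFNA1 in the treatment label, whereas the title of the series has IFNAR1. The labels do not say whether a sample came from 1 mouse or several.

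TCF-1, encoded by Tcf7, and LEF-1 are HMG-box factors that act early in Tfh cells and help to raise Bcl6. TOX and TOX2 are HMG-box proteins of another family that bind chromatin in Tfh and in exhausted T cells. The E proteins E2A (Tcf3), E2-2 (Tcf4) and HEB (Tcf12) share a symbol with the TCF family but are basic helix-loop-helix factors that bind the E-box, CANNTG. ID2 and ID3 lack a DNA-binding region and hold E proteins off DNA, and the helix-loop-helix factor ASCL2 pairs with E proteins and can switch on Cxcr5.

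Every value below describes pooled fragments on 2 sides, and values of single samples were not analysed here, so no value carries a spread between mice. The list holds gains on the anti-IFNAR1 side alone, and losses were not analysed here. The depth of the anti-IFNAR1 side was 3.54 times that of the control side, and equal depth per sample would give 1.33. With the default mouse genome size of the peak caller, the sides would hold about 3700000 and 1050000 fragments. More open cells and more open chromatin per cell cannot be told apart in such pooled samples.

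The promoter windows below are shown because a member's peak overlaps them. Each runs from 250 bases before to 50 bases after a start (GRCm38.p6, the same build as mm10), 5′ to 3′ on the gene's strand, and capitals mark E-boxes. RefSeq windows were found for 8 of the 10 genes, and 5 genes had a window that overlapped their peak. They lie at chr4:136143572-136143871 (+) for Id3, chr12:25096043-25096342 (-) for Id2, chr2:163203033-163203332 (+) for Tox2, chr7:142969215-142969514 (-) for Ascl2 and chr9:71896047-71896346 (-) for Tcf12.
Id3: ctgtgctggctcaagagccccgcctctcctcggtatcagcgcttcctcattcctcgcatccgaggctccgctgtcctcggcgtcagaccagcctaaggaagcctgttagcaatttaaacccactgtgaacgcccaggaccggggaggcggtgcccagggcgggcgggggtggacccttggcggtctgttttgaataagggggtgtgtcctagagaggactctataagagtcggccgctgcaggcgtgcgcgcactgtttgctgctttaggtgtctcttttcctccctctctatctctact
Id2: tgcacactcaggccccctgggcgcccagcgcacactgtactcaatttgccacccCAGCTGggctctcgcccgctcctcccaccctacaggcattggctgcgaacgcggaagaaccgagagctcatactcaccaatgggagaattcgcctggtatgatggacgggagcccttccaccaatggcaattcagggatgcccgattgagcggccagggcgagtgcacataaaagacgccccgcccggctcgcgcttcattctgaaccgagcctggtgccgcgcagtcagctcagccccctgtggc
Tox2: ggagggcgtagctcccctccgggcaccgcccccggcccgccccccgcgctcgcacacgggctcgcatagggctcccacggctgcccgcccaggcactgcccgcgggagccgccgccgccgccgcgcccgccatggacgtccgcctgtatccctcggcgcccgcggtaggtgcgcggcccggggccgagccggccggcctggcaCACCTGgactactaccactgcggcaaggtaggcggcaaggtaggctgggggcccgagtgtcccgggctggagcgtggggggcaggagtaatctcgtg
Ascl2: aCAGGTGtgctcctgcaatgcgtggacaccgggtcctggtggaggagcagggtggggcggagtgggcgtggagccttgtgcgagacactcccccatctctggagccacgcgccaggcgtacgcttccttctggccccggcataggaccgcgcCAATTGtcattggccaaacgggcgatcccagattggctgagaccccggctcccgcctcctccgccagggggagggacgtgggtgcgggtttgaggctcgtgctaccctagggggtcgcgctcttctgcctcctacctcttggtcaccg
Tcf12: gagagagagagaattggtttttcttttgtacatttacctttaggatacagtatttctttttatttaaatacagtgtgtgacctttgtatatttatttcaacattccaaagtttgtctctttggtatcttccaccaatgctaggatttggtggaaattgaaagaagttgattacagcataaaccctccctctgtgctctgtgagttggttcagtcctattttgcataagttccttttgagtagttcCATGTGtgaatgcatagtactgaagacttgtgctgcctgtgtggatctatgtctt

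The windows differ in composition. The Tcf12 window is AT-rich, with 36.3% G and C and 0 CpG, and 4.98% of all 32851 RefSeq windows have a lower G and C share. The Tox2 window has 77.7% G and C and 39 CpG, Ascl2 67.0% and 23, Id2 63.3% and 21, and Id3 60.0% and 19. The median over all windows is 52.7% with 7 CpG, and over the 4210 windows that overlap any listed peak it is 63.3% with 24 CpG. The Tcf12 window thus lies below both medians, and the other 4 windows lie above the median of all windows. Set against windows that overlap a listed peak, Tox2 alone lies above the median in both G and C share and CpG. Ascl2, Id2 and Id3 lie below that CpG median, and Id3 also lies below the median G and C share.

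E-boxes on either strand were present in 4 of these 5 windows, against 72.3% of all windows and 59.0% of windows that overlap a listed peak. Ascl2 had 2, CAGGTG and CAATTG, Id2 had CAGCTG, Tox2 had CACCTG and Tcf12 had CATGTG. The Id3 window had none. The Tox2 E-box, at bases 204 to 209 of the window, was the one E-box found inside a peak. Only the parts of the peaks within these windows were searched. These were 27 of 741 bp at Id2, 55 of 973 at Id3, 86 of 1444 at Ascl2, 120 of 292 at Tox2 and 138 of 294 at Tcf12. No part of the Tcf7, Lef1 and Tox peaks was searched. None of the 5 windows held CTTTGA, 1 form of the TCF and LEF motif, TTCNNNGAA, the STAT motif, or TGANTCA, the AP-1 motif. These occur in 16.0%, 8.30% and 7.81% of all windows, and in 10.4%, 5.18% and 3.99% of windows that overlap a listed peak. Other forms of the TCF and LEF motif were not searched, and the Tcf12 window holds CTTTGT inside the peak. An ISRE-like pair, GAAA repeated after any 2 bases, occurs in 3.44% of all windows and in 2.28% of windows that overlap a listed peak. It was found once here, as GAAATTGAAA at bases 152 to 161 of the Tcf12 window, outside the peak, which covers bases 1 to 138. Motifs were searched on both strands, and the CAGCTG and CACCTG letters are forms of the same E-box.

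The 8 of 10 members with a listed peak compare with 21.1% of 21883 protein-coding genes of RefSeq. All 8 peaks were in the section the file calls TSS (transcription start site), which holds 72.4% of listed peaks, and 18.5% of protein-coding genes had such a peak. One peak per gene was also the usual case, since 90.6% of the 4614 listed protein-coding genes had 1 peak.

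Tcf7 and Lef1 were both listed, and Tcf7 stood higher in the list. At Tcf7 the peak spanned chr11:52283396-52284382, 987 bp long, with 37 anti-IFNAR1 fragments at the summit and 3 control fragments in the 1 kb around it. In the authors' deposited table its pileup, the caller's scaled fragment count, was 10.46, its fold over the control background 6.71 and its q 1.48e-06. The background of 0.708 fragments leaves 0 control fragments at the site itself, where the exact 95% interval of the ratio scaled for depth starts at 2.70. Its fold was above that of 85.9% of listed peaks and its pileup above that of 40.7%.

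Lef1 had a lower fold over a better covered control site. Its peak spanned chr3:131111259-131111963, 705 bp long, with 44 anti-IFNAR1 and 3 control fragments at the same site. In the authors' deposited table its pileup was 12.44, its fold 3.36 and its q 0.0137. Its fold was above that of 8.41% of listed peaks. The file assigned it to the start of a retained-intron transcript, Lef1-005, while its summit lay 1648 bp inside the gene as RefSeq draws it.

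Both TOX genes were listed with a high number of fragments on both sides. The Tox peak, chr4:6989777-6991245, had 59 anti-IFNAR1 and 4 control fragments at the site. In the authors' deposited table its pileup was 16.68, its fold 3.54 and its q 0.0016. It was 1469 bp long, longer than 96.6% of listed peaks. The Tox2 peak, chr2:163203213-163203504, was short at 292 bp and had the most fragments of the 8 peaks, 76, against 27 control fragments in the surrounding 1 kb. In the authors' deposited table its pileup was 21.48, above that of 90.4% of listed peaks, and its fold was 3.05, above that of 3.60%. Its q there, the authors' deposited value, was 0.00148. Tox2 thus combined the highest coverage with the lowest fold among the members.

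**Figure D1:**
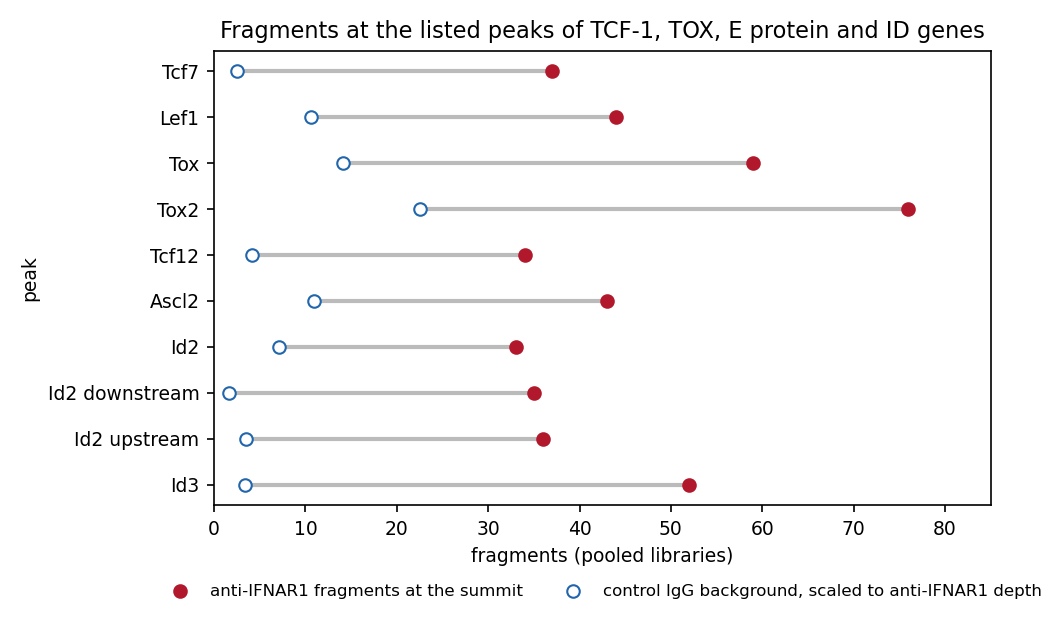
Fragments at the summit of each listed peak (filled points, anti-IFNAR1 side) and the control IgG background multiplied by the depth ratio of 3.54 (open points), both in fragments of pooled libraries, so no error bar can be drawn. Anti-IFNAR1 fragments run from 33 at Id2 to 76 at Tox2, and the scaled background of the members runs from 2.50 at Tcf7 to 22.5 at Tox2.

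Of the 3 E protein genes, Tcf12 alone had an assigned peak. It spanned chr9:71896209-71896502, 294 bp long, with 34 anti-IFNAR1 fragments and 5 control fragments in the surrounding 1 kb. In the authors' deposited table its pileup was 9.61, its fold 4.87 and its q 0.000796. The peak did not lie at the first exon of the full-length gene. Its summit was 215483 bp downstream of the RefSeq gene start and 321 bp upstream of the start of Tcf12-011, a shorter protein-coding transcript. The peak overlapped the AT-rich window printed above by 138 bp, and the summit lay outside that window. The 2 RefSeq windows at the start of the full-length gene, with 71.7% and 75.7% G and C, had no listed peak.

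No listed peak was assigned to Tcf3 (chr10:80409541-80433976) or lay within 5 kb of it. The nearest was the TSS peak of Mbd3, a gene of the methyl-CpG binding domain family, 9.92 kb away. It had 123 anti-IFNAR1 fragments against 21 control fragments in 1 kb and a fold of 6.01 in the authors' deposited table. Tcf4, on chromosome 18, had no listed peak within 100 kb, and the nearest was 956 kb away. An unlisted gene is one without a called gain. Whether its chromatin is open or closed in these cells cannot be read from the list.

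Ascl2 was listed with a low fold over a wide peak. The peak spanned chr7:142967857-142969300, 1444 bp long and mostly inside the short Ascl2 gene, with 43 anti-IFNAR1 fragments against 13 control fragments in the surrounding 1 kb. The authors' deposited table gave a pileup of 12.16, fold 3.23 and q 0.0165. The summit was 1406 bp into the gene and 1 bp from the peak's edge.

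The inhibitor gene Id3 was the member with the highest fold and the smallest q. Its peak, chr4:136143817-136144789, covered the gene start and ran to 967 bp past it, with 52 anti-IFNAR1 fragments against 4 control fragments in the surrounding 1 kb. The authors' deposited table gave a pileup of 14.70, fold 8.08 and q 2.17e-09, which was rank 535 of 6395. The background of 0.944 leaves 0 control fragments at the site, where the exact 95% interval of the ratio scaled for depth starts at 3.85.

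The assigned Id2 peak was the weakest of the 8 by q, and the intergenic peaks beside the gene had smaller q values. Anti-IFNAR1 counts were close among these Id2 peaks, so their order rests on few control fragments, and the intervals of their ratios overlap. The assigned peak, chr12:25095329-25096069, had 33 anti-IFNAR1 and 2 control fragments at the site. The authors' deposited table gave it a pileup of 9.33, fold 3.44 and q 0.0352. A peak without an assigned gene, chr12:25092457-25092834, lay beyond the 3′ end of the 2294 bp gene, 3258 to 3635 bp after its start, with 35 anti-IFNAR1 fragments against 2 control fragments in 1 kb (fold 7.40, q 5.93e-07 in the authors' deposited table). Another, chr12:25098443-25098840, lay 2351 to 2748 bp upstream of the Id2 start, with 36 against 1 control fragment at the site (fold 5.59, q 2.85e-05 in the authors' deposited table). Id2 was the single member with such unassigned peaks within 5 kb, and with them the members' loci held 10 peaks. By the same 5 kb rule 29.1% of protein-coding genes had a listed peak, and the count of members stayed at 8.

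**Figure D2:**
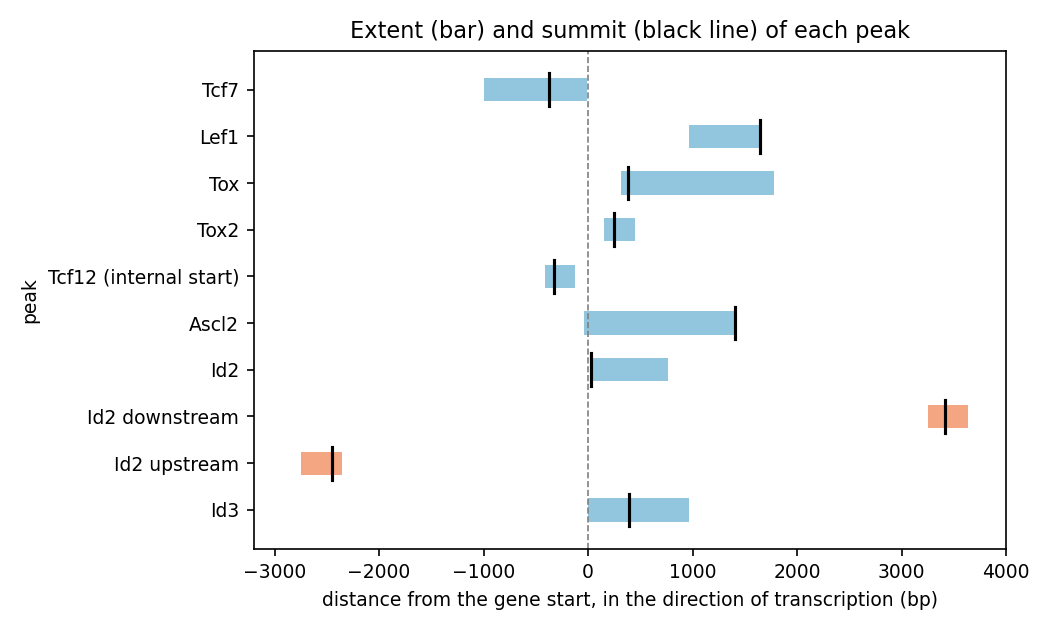
Extent (bars) and summit (black lines) of each peak as distance in bp from the gene start, in the direction of transcription; the start is the RefSeq gene start, or for Tcf12 the start of Tcf12-011. Blue bars are peaks assigned to the gene and orange bars are unassigned peaks beside Id2; the Tcf7 summit is 377 bp upstream and the Id2 summit 33 bp downstream of the start.

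The TSS label of the file covered several positions. Measured from the outermost RefSeq gene start, only the Id3 and Ascl2 peaks spanned that start. The Tcf7 peak lay wholly upstream and ended 13 bp before it, and the Id2, Tox2, Tox and Lef1 peaks began 23, 155, 312 and 962 bp inside the gene. The file measures distance from the peak's edge to the start of 1 assigned transcript. For Id3 and Lef1 that transcript is a noncoding form with a later start. The Tox2 peak did cover a later RefSeq start, that of the Tox2 window printed above. The Tox peak covered the start of its assigned protein-coding transcript, Tox-001, reaching from -446 to 1022 bp around it. The summits of Ascl2, Id2 and Lef1 lay 1, 10 and 18 bp from a peak edge. A summit within 50 bp of an edge was found in 16.5% of all listed peaks and in 5.62% of the 2028 listed peaks of at least 700 bp, the length class of these 3.

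Over the 8 member peaks the median fold was 3.49 (range 3.05 to 8.08), against 4.74 over the list and 4.76 over all TSS peaks. Of the 8, 3 had a fold above the list median, namely Id3, Tcf7 and Tcf12. The median coverage was 43.5 anti-IFNAR1 fragments, against 41 over the list and 46 over TSS peaks, and 5 of 8 pileups were above the list median. The median control background was 2.50 fragments, against 1.49 over the list and 2.00 over TSS peaks. No test was made between the members and the list, since the genes were chosen with earlier results known.

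**Figure D3:**
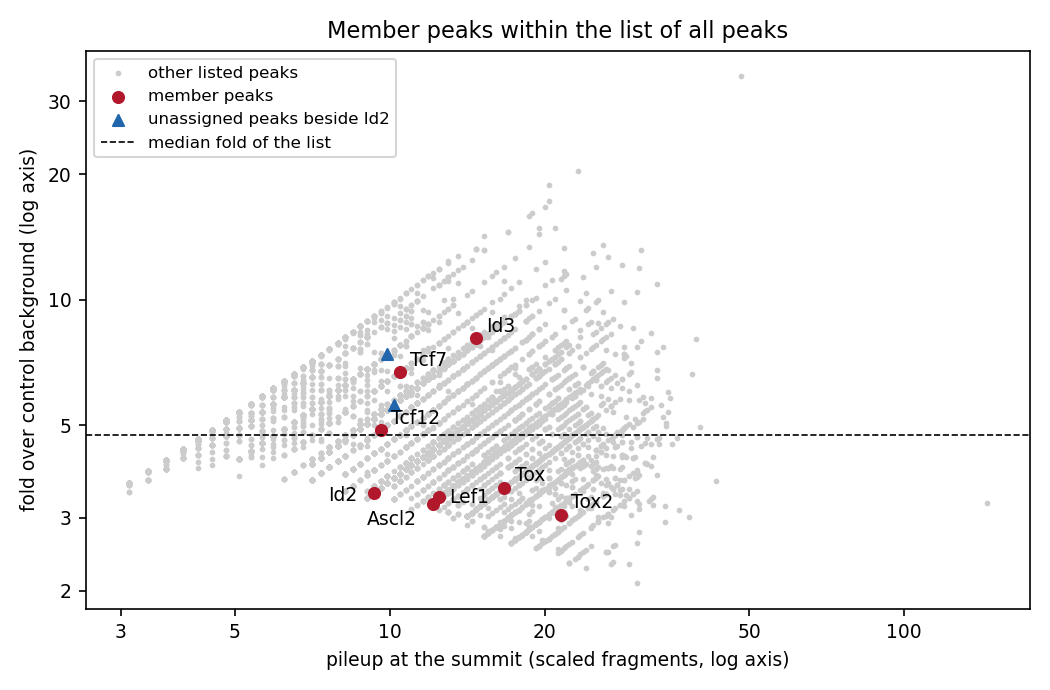
Fold over the control background against pileup at the summit for each of the 6395 listed peaks (both axes logarithmic; grey, other peaks; red, member peaks; blue triangles, unassigned peaks beside Id2; dashed line, median fold of the list, 4.74). Id3, Tcf7 and Tcf12 lie above the line, and Tox, Id2, Lef1, Ascl2 and Tox2 lie below it with folds of 3.05 to 3.54.

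Scaled for depth and set against the background the caller used, the ratio of anti-IFNAR1 to control coverage was 15.6 at Id3 (exact 95% interval 5.73 to 59.3), 14.8 at Tcf7 (4.68 to 74.9) and 8.15 at Tcf12 (3.17 to 26.7). At Id2 it was 4.66 (1.19 to 40.1), at Tox 4.17 (1.55 to 15.8) and at Lef1 4.15 (1.33 to 20.9). At Ascl2 it was 3.96 (2.09 to 8.03) and at Tox2 3.37 (2.15 to 5.44). Tox2 and Ascl2, with the most control fragments counted, had the narrowest intervals. The whole Id3 interval lies above the whole Tox2 interval, with control fragments counted in 1 kb. These are the highest and lowest ratios of the member peaks, picked after they were seen, and a difference between them was not tested. At the site alone the Id3 interval starts lower, at 3.85, and the Tox2 interval at 1.57. For the unassigned peaks beside Id2, the ratio was 21.0 downstream (5.39 to 180.0) and 10.2 upstream (1.71 to 413.0). Counting error in pooled fragments is all that these intervals hold. The counts that put a peak on the list also make up its ratio, so the ratios are tilted towards a gain.

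**Figure D4:**
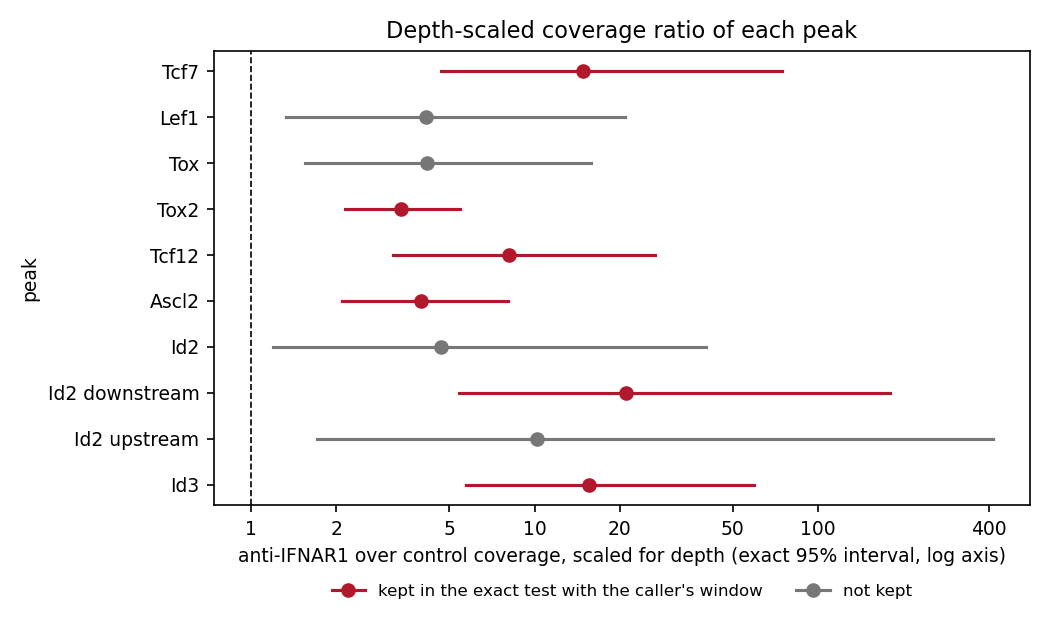
Ratio of anti-IFNAR1 to control IgG coverage at each peak, scaled for depth, on a log axis; points are ratios, lines are exact 95% intervals for counting error in pooled fragments, and the dashed line marks equal coverage. Red peaks passed the exact test against the caller's background and grey peaks did not; intervals run from 2.15 to 5.44 at Tox2 to 1.71 to 413.0 at the upstream Id2 site.

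The caller's p-values treat the control background as known without error. A one-sided exact conditional binomial test with control noise was therefore set against the largest p of the list, 6.9e-05. The test reuses the counts that put each peak on the list. Its p-values are thus tilted towards a gain and are no independent evidence of a gain. With the caller's background, 5 of the 8 peaks passed it, against 68.7% of listed peaks: Id3 (exact p = 5.68e-14), Tcf7 (exact p = 3.79e-10), Tox2 (exact p = 5.27e-09), Tcf12 (exact p = 7.38e-08) and Ascl2 (exact p = 1.83e-06). Tox (exact p = 0.000752), Lef1 (exact p = 0.00387) and Id2 (exact p = 0.0096), whose background is 2 to 4 control fragments at the site, did not. With the site alone, Id3 was the 1 peak of 8 to pass (exact p = 2.39e-06), against 20.9% of listed peaks. Passing there takes 39 fragments even with 0 control fragments. Tcf7 (37 fragments), Tcf12 (34) and Id2 (33) could thus not have passed, and the count at the site is 1 of the 5 peaks that could. Over the list, 44.6% of peaks had too few fragments, and 1335 of the 3541 that could pass did. The unassigned peaks beside Id2, with 35 and 36 fragments, could not have passed there either. With the caller's background the downstream peak passed (exact p = 2.22e-10) and the upstream peak did not (exact p = 0.00114). At a q of 0.01, 5 of the 8 were left, against 82.4% of listed peaks, and Lef1, Ascl2 and Id2 dropped out. With a pileup of at least 20, Tox2 alone was left, against 12.5% of listed peaks.

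Of 40 further genes of this network, 17 (42.5%) had a listed peak, against the 21.1% of protein-coding genes, with 24 peaks in all and a median fold of 4.89. Bcl9, which links β-catenin to transcription with TCF factors, had a fold of 13.2 with 54 anti-IFNAR1 fragments against 1 control fragment in 1 kb, above every member. Axin1 and Apc, parts of the complex that degrades β-catenin, had folds of 7.88 and 5.92. Ldb1, an adaptor of LMO and E protein complexes, had 6.81 and a further peak at 3.35. Gfi1, a repressor gene, had 6.58 and Bhlhe40, another helix-loop-helix gene, 6.56 and 2.48. Bach2, which restrains effector differentiation, had 6.07 and 3.91, and Bcl6, the master regulator of Tfh cells, 6.04 and 3.79. All of these folds stand in the authors' deposited table. The other 9 listed genes reached folds of 4.03 to 5.14. With the exact test against the caller's background, 19 of the 24 peaks passed, against the 68.7% of listed peaks. Those that did not pass included the Gfi1 peak, with 43 anti-IFNAR1 fragments against 1 control fragment at the site. The others were the lower-fold peaks of Ldb1, Bhlhe40 and Bach2 and the Tle3 peak with a fold of 5.14. At the site, 7 of the 24 passed, against the 20.9% of listed peaks. Too few fragments to pass there were found at 12, against 44.6% of listed peaks. The 7 are thus out of 12 that could pass, against 1335 of 3541 over the list. The 7 were 1 each at Bcl9, Ldb1, Bhlhe40, Bcl6, Apc, Axin2 and Gsk3b.

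Among the closest relatives of the members, Tcf7l2 was the 1 of 6 with an assigned peak, where 21.1% of all protein-coding genes had one. So small a count cannot be told apart from that share. The Tcf7l2 peak had 13 fragments over a background at the genome rate and a fold of 4.13 in the authors' deposited table. Tcf7l1, Tox3, Tox4, Id1 and Id4 had none. Ctnnb1, which encodes β-catenin, and Prdm1, which encodes the Tfh antagonist BLIMP-1, were among the 23 network genes without an assigned peak, and these names were picked after their values were seen.

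As to the sorted cell type, 5 of 9 Tfh and CD4 T cell markers had an assigned peak (Cd3e, Cd4, Pdcd1, Bcl6 and Maf), where 21.1% of protein-coding genes had one. Tnfrsf18, which encodes the GITR that the sort selected against, had none. Of 6 markers of B cells and 5 of CD8 T or NK cells, 0 had one, and 2 of 6 myeloid markers did, Cd14 and Cebpa. A list of gains does not show which genes are open, so these counts do not measure the purity of the sort, and the part of other cells in the members' values was not tested.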

How the data were processed

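The submitters' processing notes name the aligner BWA (0.7.9a), the peak caller MACS2 (2.1.0.20150420), DiffBind (2.0.7), DESeq2, bedtools and build mm10. How each was run, whether cut sites were shifted or duplicates removed, and which libraries entered each side are points not given in the sources used here. Each row of the authors' deposited table is a peak with its signal (pileup, scaled fragments at the summit), the fold enrichment (a ratio over background), and, in 2 columns with damaged headers, values read as −log10 p and −log10 q. For the first, Poisson values computed anew matched within 0.000381. The direction, anti-IFNAR1 over control IgG, was read from the peak names and sample titles, and the members were matched by the file's gene name. Peak ends in the file are 1 past the last base, and inclusive ends are printed.

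Pileups were whole multiples of 0.283 (tolerance 0.005), which gave fragments and the depth ratio. The background followed from the fold with a pseudocount of 1 on both sides. It was read as fragments at the site (a fragment length of 236 bp), in 1 kb or in 10 kb, or as the genome rate of 0.132, and a value that fits both windows was read as 1 kb. Unknown control fragments at a site were set to the most the background allows. Exact tests and intervals (SciPy 1.17.1) were tested on simulated Poisson counts. The simulation left out the selection of peaks for the list, PCR copies and differences between mice, so it does not cover their effect. PCR copies are not independent molecules, so intervals and limits cover counting error only.

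Because no column carries a sample, the fits per sample allowed for in the design could not be made, and the authors' calls at a q of 0.05 stand. The members and gene lists were chosen with earlier results of these data known. All 10 members are named with every peak, as are the 8 listed network genes of highest fold and the 6 family relatives. Gene counts use 21883 protein-coding RefSeq genes (GRCm38.p6), to which 5146 peaks matched by symbol or synonym, after 6 matches that lay elsewhere were dropped. Sequences are from RefSeq.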

Additional observations from a re-analysis of the deposited data

How the results depend on the processing

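From 8, the number of member peaks, and equally of members with a peak, moved to 5 at a q of 0.01, to 1 with a pileup of at least 20, to 5 under the exact test against the caller's background and to 1 under that test at the site. It was 8 with TSS peaks alone, and peaks within 5 kb of the gene gave 10 peaks at 8 members. Of all listed peaks, 82.4% were left at a q of 0.01 and 12.5% with a pileup of at least 20. The exact test left 68.7% against the caller's background and 20.9% at the site, and 72.4% were TSS peaks. The median fold of 3.49 became 4.87 at a q of 0.01. The 17 listed network genes became 14 at a q of 0.01 and 21 with peaks within 5 kb. The 5 kb rule also raised the share of all protein-coding genes with a listed peak, from 21.1% to 29.1%. Depth limits these values: 2 to 27 control fragments, at the site or in 1 kb, stand behind each member's interval. Too few fragments to pass at the site were found at 3 of the 8 peaks, against 44.6% of listed peaks. Values without 1 replicate could not be computed because the file has no column per sample. No paired analysis was possible because the columns carry no sample or replicate number.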
